A study of Mus musculus with 5 samples.

Results

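The genes described here are 10 genes of the antioxidant response that is controlled by the transcription factor NRF2: Nfe2l2, which encodes NRF2 itself, and Hmox1, Nqo1, Gclm, Gclc, Srxn1, Txnrd1, Slc7a11, Gsta4 and Prdx1, which are known as its targets. They were chosen by name and matched to gene identifiers, and they are 10 of the 27729 genes in the deposited values. All 10 reached 10 expected counts in at least 1 library, as did 13346 genes in all, which are called the genes tested. RNA came from cultured mouse embryonic fibroblasts (MEFs) of the ICR strain, taken from embryos after removal of the head and internal organs. The day 0 library was made from cells in serum medium. The libraries of days 2, 5, 10 and 14 were made from cells moved to the serum-free 5C medium, which holds bFGF, LIF, vitamin C, 2-mercaptoethanol and a supplement with insulin, transferrin and selenite, and which is used to convert MEFs to neuron-like cells. The labels call this medium 6C, and the protocol text beside them ends 1 day later than the label of the last library. The labels name no deleted or introduced gene. There was 1 library per day, so no difference between days has a replicate check, no test between days was possible, and time cannot be told apart from differences between cultures or library preparations.

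NRF2 is held at a low level in resting cells, because KEAP1, an adaptor of the CUL3 and RBX1 ubiquitin ligase, marks it for degradation. Oxidants and electrophiles that modify KEAP1 let NRF2 accumulate, pair with small MAF proteins and bind antioxidant response elements near its target genes, where BACH1 acts as a competing repressor. NRF2 is therefore controlled largely as a protein, and the RNA of Nfe2l2 does not measure its amount or activity. The targets divide by role into the synthesis of glutathione, the thioredoxin and peroxiredoxin system, the detoxication of quinones and lipid aldehydes, and the breakdown of haem.

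Most of the 10 genes were highest in the day 5 library and lower again on day 10. On day 5, 7 of the 10 genes were over 2-fold above day 0 and none was over 2-fold below it, where 20.2% of all genes tested were over 2-fold higher and 13.6% over 2-fold lower. From day 5 to day 10 all 10 genes decreased, 6 of them by over 2-fold, where 9.5% of all genes tested were over 2-fold lower, 12.8% over 2-fold higher and 50.7% lower by any amount. The normalized count, which is the expected count divided by the effective size of its library and scaled to the mean library, peaked on day 5 in 8 of the 10 genes, a day on which 10.6% of all genes tested peaked. In 2 of the 8, Nqo1 and Gsta4, day 5 did not differ from day 2 beyond counting error. Their log2 changes in that step were 0.30 (95% interval −0.01 to 0.63) and 0.15 (−0.07 to 0.37). Prdx1 peaked on day 2 instead, and Txnrd1 was as high on day 0 as on day 5. By TPM, the deposited level per gene length, all 10 genes peaked on day 5, against 11.8% of all genes tested, and all 10 were lower on day 10 than on day 5, against 29.8% of all genes tested. The 10 genes are one pathway picked with earlier results of these data known, and the peak on day 5 rests on a single library.

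**Figure D1:**
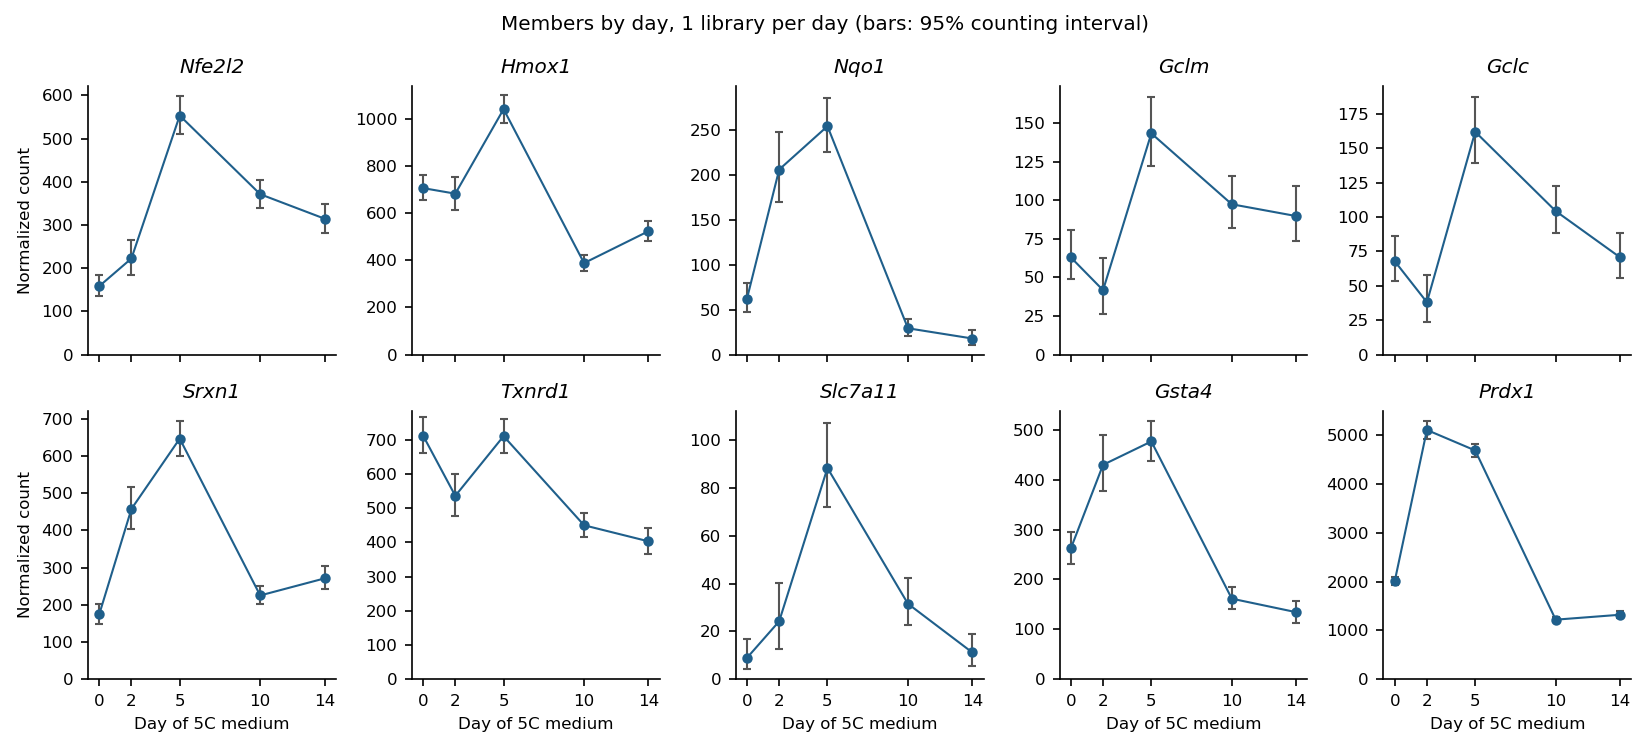
Normalized counts of the 10 genes (vertical axes) by day of 5C medium (horizontal axes), with 1 library per day and vertical bars for the 95% counting interval. In 8 panels the highest point is day 5, while Prdx1 is highest on day 2, at 5106, and Txnrd1 is at 712 on day 0 and 711 on day 5.

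Of the 10 genes, 7 have a promoter window in RefSeq (GRCm38.p6), with 9 windows in all because Txnrd1 has several start sites. In the 250 bases before each start, both strands were searched for TGACNNNGC, the core of the antioxidant response element that NRF2 binds, and for TGAGTCA, the site of AP-1 factors, whose letters can overlap an antioxidant response element. The core was found in 1 window each of Nfe2l2, Gclm, Txnrd1 and Prdx1, which is 4 of the 9 windows and 4 of the 7 genes. Of all 32851 windows, 10.16% held it. The AP-1 site was found in the windows of Srxn1 and Prdx1, 2 of the 9, and in 4.463% of all windows. In Prdx1 an AP-1 site lies within the matched core. A core match and an AP-1 site with first bases less than 8 bases apart were found in 0.3896% of all windows. That share also takes in sites that overlap only in part or lie side by side. The 5 windows with a match are shown in the direction of the gene up to the first annotated exon base, with the matched bases in capitals, because they show which of these genes hold either string near a start. Srxn1 is shown for its AP-1 sites and holds no match to TGACNNNGC, the only form of the core that was searched. They lie at chr2:75704664-75704913 on the minus strand for Nfe2l2 and, on the plus strand, at chr3:122245307-122245556 for Gclm, chr2:152105274-152105515 for Srxn1, chr10:82858956-82859178 for Txnrd1 and chr4:116685349-116685543 for Prdx1.
Nfe2l2: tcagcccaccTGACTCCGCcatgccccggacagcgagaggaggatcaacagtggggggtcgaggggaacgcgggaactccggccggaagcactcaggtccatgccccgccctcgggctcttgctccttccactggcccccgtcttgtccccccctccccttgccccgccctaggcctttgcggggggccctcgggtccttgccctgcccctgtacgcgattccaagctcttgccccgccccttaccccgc
Gclm: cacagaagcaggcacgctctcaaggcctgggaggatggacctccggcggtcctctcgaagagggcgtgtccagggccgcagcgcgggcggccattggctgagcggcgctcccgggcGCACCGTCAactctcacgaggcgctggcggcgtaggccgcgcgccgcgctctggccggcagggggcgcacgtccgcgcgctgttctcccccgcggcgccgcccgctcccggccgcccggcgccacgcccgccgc
Srxn1: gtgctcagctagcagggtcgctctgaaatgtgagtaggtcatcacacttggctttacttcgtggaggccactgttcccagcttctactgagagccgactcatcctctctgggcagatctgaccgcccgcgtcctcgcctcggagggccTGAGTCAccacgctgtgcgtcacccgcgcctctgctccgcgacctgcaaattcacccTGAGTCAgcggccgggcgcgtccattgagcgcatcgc
Txnrd1: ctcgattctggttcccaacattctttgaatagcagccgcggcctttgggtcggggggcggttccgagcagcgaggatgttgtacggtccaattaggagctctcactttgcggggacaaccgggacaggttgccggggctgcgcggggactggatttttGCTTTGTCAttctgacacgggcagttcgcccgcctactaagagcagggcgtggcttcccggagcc
Prdx1: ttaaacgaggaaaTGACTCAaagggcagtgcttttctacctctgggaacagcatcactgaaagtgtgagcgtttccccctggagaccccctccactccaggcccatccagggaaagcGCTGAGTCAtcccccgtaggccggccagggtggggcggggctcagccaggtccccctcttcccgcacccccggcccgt
Positions are counted back from the RefSeq start, which lies 8, 27 and 55 bases beyond the printed end in Srxn1, Txnrd1 and Prdx1. In Nfe2l2 the capitals are a core match 240 to 232 bases before the start. Gclm holds its core match 134 to 126 bases before the start, on the opposite strand. The core match of Txnrd1 lies 92 to 84 bases before its second start site, also on the opposite strand. Srxn1 holds AP-1 sites 102 to 96 and 45 to 39 bases before the start. Prdx1 holds an AP-1 site 237 to 231 bases before the start and, 133 to 125 bases before it, the core match that shares bases with another AP-1 site. The windows of Nqo1 and Slc7a11 held neither string. No binding was measured, and a match of letters is a description of these windows only.

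Nfe2l2 (ENSMUSG00000015839, chromosome 2, 75675513 to 75704641 on the minus strand of GRCm38) had normalized counts of 158, 223, 554, 371 and 315 in the 5 libraries, in order of time from day 0 to day 14, the order used for all such series here. All later libraries lay above day 0, and the gene was one of a pair, with Slc7a11, still over 2-fold higher on day 10, where 28.7% of all genes tested were over 2-fold higher and 22.3% over 2-fold lower. The log2 change to day 0, computed with a pseudocount of 1, started at 0.49 (95% interval 0.14 to 0.84) on day 2, reached 1.80 (1.55 to 2.07) on day 5, and stood at 1.22 (0.97 to 1.49) and 0.99 (0.72 to 1.27) in the last libraries. The intervals given with log2 changes and ratios are exact Clopper-Pearson intervals and cover counting error only.

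The glutathione genes start with cystine uptake. Slc7a11 (ENSMUSG00000027737, chromosome 3, 49892526 to 50443614, minus strand) encodes the transport subunit of the cystine-glutamate exchanger, and by TPM it was the lowest of the 10 genes in every library. Its normalized counts were 8.90, 24.2, 88.5, 31.6 and 11.1. The day 5 value was the highest and the first and last values were the lowest. The log2 change was 3.18 (2.33 to 4.48) on day 5, the largest among the 10 genes, and 1.72 (0.77 to 3.04) on day 10. It rests on 8.99 expected counts on day 0, and on day 14 the change of 0.30 (−1.10 to 1.69) was not detectable at this depth. The mean transcript length that RSEM assigned to Slc7a11 ranged from 4486 bases on day 2 to 8400 bases on day 5, and per length the gene stood at 0.55, 1.58, 6.06, 4.64 and 1.42 TPM.

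Gclc (ENSMUSG00000032350, chromosome 9, 77754535 to 77794485, plus strand) and Gclm (ENSMUSG00000028124, chromosome 3, 122245557 to 122270732, plus strand) encode the catalytic and the modifier subunit of glutamate-cysteine ligase, the rate-limiting enzyme of glutathione synthesis. Gclc had normalized counts of 67.8, 38.0, 162, 104 and 70.6. Gclm had 63.0, 41.8, 144, 97.5 and 89.9. Both were lowest on day 2 and highest on day 5. The log2 changes to day 0 on day 2 were −0.82 (−1.63 to −0.12) for Gclc and −0.58 (−1.36 to 0.10) for Gclm. From day 2 to day 5 Gclc increased by 2.06 (1.44 to 2.82) and Gclm by 1.76 (1.15 to 2.48) on the log2 scale. They were 2 of the 4 genes over 2-fold higher in that step, with Nfe2l2 and Slc7a11, where 19% of all genes tested were over 2-fold higher and 12.5% over 2-fold lower. Exons of Gclm share 296 bases with Gm17494 on the opposite strand, which had at most 18.6 expected counts, and 244 bases with the pseudogene Gm6061. The library kit did not mark strand, so reads of Gclm from these bases are uncertain.

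The thioredoxin and peroxiredoxin genes did not move as one. Prdx1 (ENSMUSG00000028691, chromosome 4, 116685544 to 116700822, plus strand), which encodes an abundant cytosolic peroxidase, was the most abundant of the 10 genes in every library by normalized counts and by TPM. Its normalized counts were 2007, 5106, 4686, 1218 and 1319. Days 2 and 5 lay above day 0, at log2 changes of 1.35 (1.26 to 1.43) and 1.22 (1.15 to 1.30). With TPM these were 0.75 and 2.21, and the length assigned to Prdx1 was 1585 bases on day 2 and 1033 bases on day 5. The step from day 5 to day 10 was −1.94 (−2.02 to −1.87). On day 10 the log2 change to day 0 was −0.72 (−0.81 to −0.63), but its sign turned to 0.84 with TPM and to 0.43 after the median of genes of like length was subtracted.

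Srxn1 (ENSMUSG00000032802, chromosome 2, 152105516 to 152111376, plus strand) encodes sulfiredoxin, which restores over-oxidised peroxiredoxins. Its normalized counts were 174, 458, 647, 225 and 271. Every later library was above day 0, with day 2 at a log2 change of 1.39 (1.11 to 1.68) and day 5 at 1.89 (1.65 to 2.14). The step from day 5 to day 10 was −1.52 (−1.72 to −1.33).

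Txnrd1 (ENSMUSG00000020250, chromosome 10, 82833951 to 82897712, plus strand), the selenoprotein that reduces cytosolic thioredoxin, was the target with the narrowest range, 1.77-fold between its highest and lowest library. Its normalized counts were 712, 536, 711, 449.9 and 403. Day 5 did not differ from day 0 beyond counting error, with a ratio of 0.998 and a 95% interval of the log2 change from −0.15 to 0.14. On day 14 the log2 change was −0.82 (−0.99 to −0.65), which became 0.054 with TPM and −0.73 with TPM less the change of the median gene.

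Nqo1 (ENSMUSG00000003849, chromosome 8, 107388225 to 107403206, minus strand) encodes the quinone reductase that is widely used as a readout of NRF2. Its normalized counts were 62.3, 206, 255, 29.3 and 17.9. Days 2 and 5 lay above day 0 and days 10 and 14 below it, the widest swing of the 10 genes, with a 14.2-fold gap between the highest and the lowest library. Day 5 was at a log2 change of 2.01 (1.63 to 2.45) and day 14 at −1.75 (−2.61 to −1.06), and the step from day 5 to day 10 was −3.08 (−3.63 to −2.65). Nqo1 was the only gene of the 10 that was over 2-fold below day 0 on day 10 or day 14 in normalized counts, although with TPM its change on day 10 was 0.068.

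Gsta4 (ENSMUSG00000032348, chromosome 9, 78182774 to 78209349, plus strand) encodes the glutathione transferase that removes 4-hydroxynonenal, a product of lipid peroxidation. It had normalized counts of 262, 430.0, 477, 161 and 134. As for Prdx1, days 2 and 5 lay above day 0 and the last libraries below it, from a log2 change of 0.86 (0.65 to 1.08) on day 5 to −0.96 (−1.27 to −0.67) on day 14. The value on day 10, −0.70 (−0.96 to −0.44), turned to 0.45 both with TPM and after the median of genes of like length was subtracted.

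Hmox1 (ENSMUSG00000005413, chromosome 8, 75093621 to 75100589, plus strand) encodes the inducible haem oxygenase, which degrades haem and is a target of NRF2 and of the repressor BACH1. Its normalized counts were 706, 682, 1040.4, 388 and 523. No library was over 2-fold above day 0 in normalized counts, and the log2 change on day 5 was 0.56 (0.43 to 0.70), or 1.27 with TPM and 0.66 with TPM less the change of the median gene. On day 10 the change was −0.86 (−1.03 to −0.70), or 0.36 with TPM and −0.73 with TPM less the change of the median gene.

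On day 2, 4 genes (Nqo1, Srxn1, Slc7a11 and Prdx1) were over 2-fold above day 0 and none was over 2-fold below, where 15.2% of all genes tested were over 2-fold higher and 13.1% over 2-fold lower. On day 10, 2 were higher and 1 was lower, both shares below those of all genes tested. On day 14 none was over 2-fold higher and 1 was over 2-fold lower, where 24.5% and 19.9% of all genes tested were. From day 10 to day 14, 1 gene (Slc7a11) was over 2-fold lower and none higher, where 8.33% and 4.73% of all genes tested were. The median log2 change of the 10 genes was 0.60, 1.23, −0.15 and −0.19 on days 2, 5, 10 and 14, against −0.034, 0.045, 0.14 and 0.070 for all genes tested. On days 10 and 14 the sign of the median depended on the scaling, and with total counts it was 0.32 and 0.17.

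**Figure D2:**
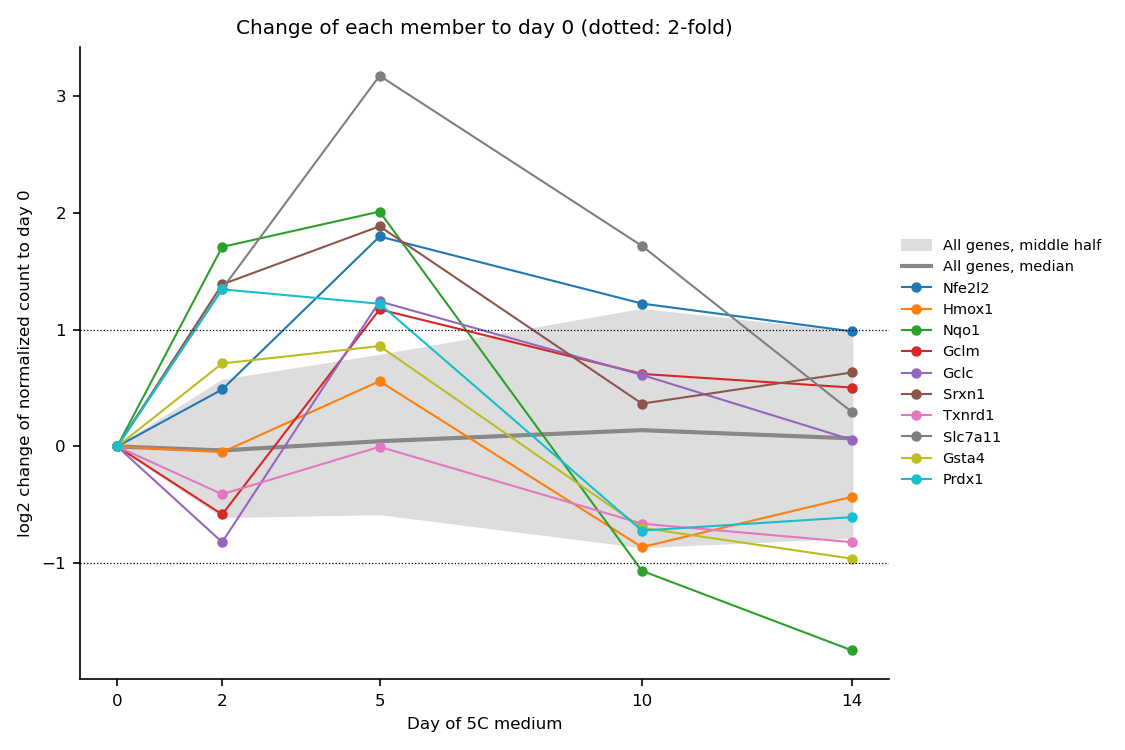
Log2 change of the normalized count to day 0 (vertical axis) by day of 5C medium (horizontal axis) for the 10 genes as coloured lines, with the median and the interquartile range of all 13346 genes tested in grey. On day 5 all but Txnrd1 lie above the grey median of 0.045, and on day 10 the genes spread from −1.07 for Nqo1 to 1.72 for Slc7a11.

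Together the 10 genes held 0.110%, 0.190%, 0.295%, 0.111% and 0.105% of all expected counts. Prdx1 made up between 58.3% and 68.9% of their summed TPM. Without Prdx1 the summed normalized counts were 2214, 2638, 4077, 1858 and 1835, so this sum was also highest on day 5. On days 10 and 14 it was below day 0, whereas the TPM sum without Prdx1 was above it, at 406, 431, 1238, 712 and 591.

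The order of the levels per length, in TPM, was stable at both ends and changed in the middle. Prdx1 was first and Slc7a11 last in all 5 libraries, and Hmox1 was second in all but the day 2 library, in which it did not differ from Gsta4 beyond counting error. On day 0 the levels were 568 TPM for Prdx1, 156 for Hmox1, 97.8 for Gsta4, 73.3 for Txnrd1, 23.0 for Nfe2l2, 21.8 for Srxn1, 14.2 for Nqo1, 12.5 for Gclm, 6.97 for Gclc and 0.55 for Slc7a11. Nfe2l2 and Srxn1, and Nqo1 and Gclm, did not differ beyond counting error on that day. On day 5 the levels were 2639 TPM for Prdx1, 377 for Hmox1, 289 for Gsta4, 133 for Srxn1, 131 for Nfe2l2, 119.8 for Txnrd1, 94.8 for Nqo1, 59.8 for Gclm, 27.2 for Gclc and 6.06 for Slc7a11. Srxn1 did not differ from Nfe2l2, at a ratio of 1.01 (0.907 to 1.13), nor Nfe2l2 from Txnrd1, at 1.09 (0.985 to 1.22). Nqo1 went from the seventh place on day 5 to the ninth on day 10, at 14.95 TPM, and stayed there on day 14, at 7.46 TPM. Gsta4, Nfe2l2 and Txnrd1, in the third to the fifth place on day 14, did not differ from their neighbours among each other beyond counting error.

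Ratios of 2 genes in the same library need no scaling between libraries. The change with gene length over all genes tested, given below, does not cancel in a ratio of 2 genes of unlike length. Gclc to Gclm, the subunits of 1 enzyme, stood at 0.561 (0.394 to 0.802), 0.923 (0.488 to 1.75), 0.459 (0.370 to 0.570), 0.532 (0.417 to 0.674) and 0.384 (0.281 to 0.518) per length. The length assigned to Gclm was 3473 bases on day 2 and between 1394 and 1784 bases in the other libraries, and by expected counts the ratio was 0.909 on day 2 against 1.08 on day 0. The intervals of neighbouring days overlapped throughout. Over the same days Gclc had a 4.26-fold and Gclm a 3.44-fold gap between its highest and lowest normalized count.

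Slc7a11 to Slc3a2, the chains of the cystine exchanger, changed most. The ratio per length was 0.00346 (0.00158 to 0.00659), 0.0297 (0.0151 to 0.0501), 0.0462 (0.0370 to 0.0569), 0.0401 (0.0286 to 0.0543) and 0.0113 (0.00560 to 0.0192). Slc3a2, which also serves other amino acid transporters, was lower in normalized counts in every later library, with log2 changes between −1.62 and −0.98. On day 2 Slc3a2 was at −1.32 (−1.52 to −1.13) and Slc7a11 at 1.35 (0.06 to 2.81), which rests on 13.39 against 8.99 expected counts and was 0.74 with TPM.

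Txnrd1 to Txn1, the reductase to its substrate thioredoxin, was 0.105 (0.0964 to 0.114), 0.0654 (0.0575 to 0.0742), 0.204 (0.186 to 0.223), 0.377 (0.335 to 0.424) and 0.210 (0.186 to 0.238). The step to day 10 came with a lower count of Txn1, whose log2 change to day 0 was −2.50 (−2.65 to −2.37) on that day. In genes of like length to Txnrd1 and Txn1 the median log2 change on day 10 was 0.55 and −1.15. Srxn1 to Prdx1, the repair enzyme to its substrate, was 0.0388 (0.0331 to 0.0453), 0.0505, 0.0507, 0.0627 and 0.0731 (0.0644 to 0.0828), and the first and last intervals did not overlap. In genes of like length to Srxn1 and Prdx1 the median log2 change on day 14 was 0.17 and −0.78. The part of gene length in these ratios was not tested. Hmox1 to Hmox2, the inducible to the constitutive haem oxygenase, was 2.78, 1.80, 3.55, 2.67 and 2.91, with the lowest value on day 2 (1.497 to 2.17) and the highest on day 5 (3.08 to 4.11).

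The ratio of Nfe2l2 to Keap1 was 1.19 (0.958 to 1.48), 1.30 (1.01 to 1.66), 3.29 (2.85 to 3.80), 2.86 (2.46 to 3.33) and 2.27 (1.92 to 2.70). In normalized counts Keap1 itself stayed within a log2 change of 0.46 of day 0 in all libraries. Nfe2l2 to Bach1 took another course, at 3.98 (3.07 to 5.18), 12.7 (8.20 to 20.4), 8.77 (7.41 to 10.4), 1.53 (1.37 to 1.71) and 2.96 (2.53 to 3.47). It was highest on days 2 and 5 and lowest on day 10, the library with the most Bach1.

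**Figure D3:**
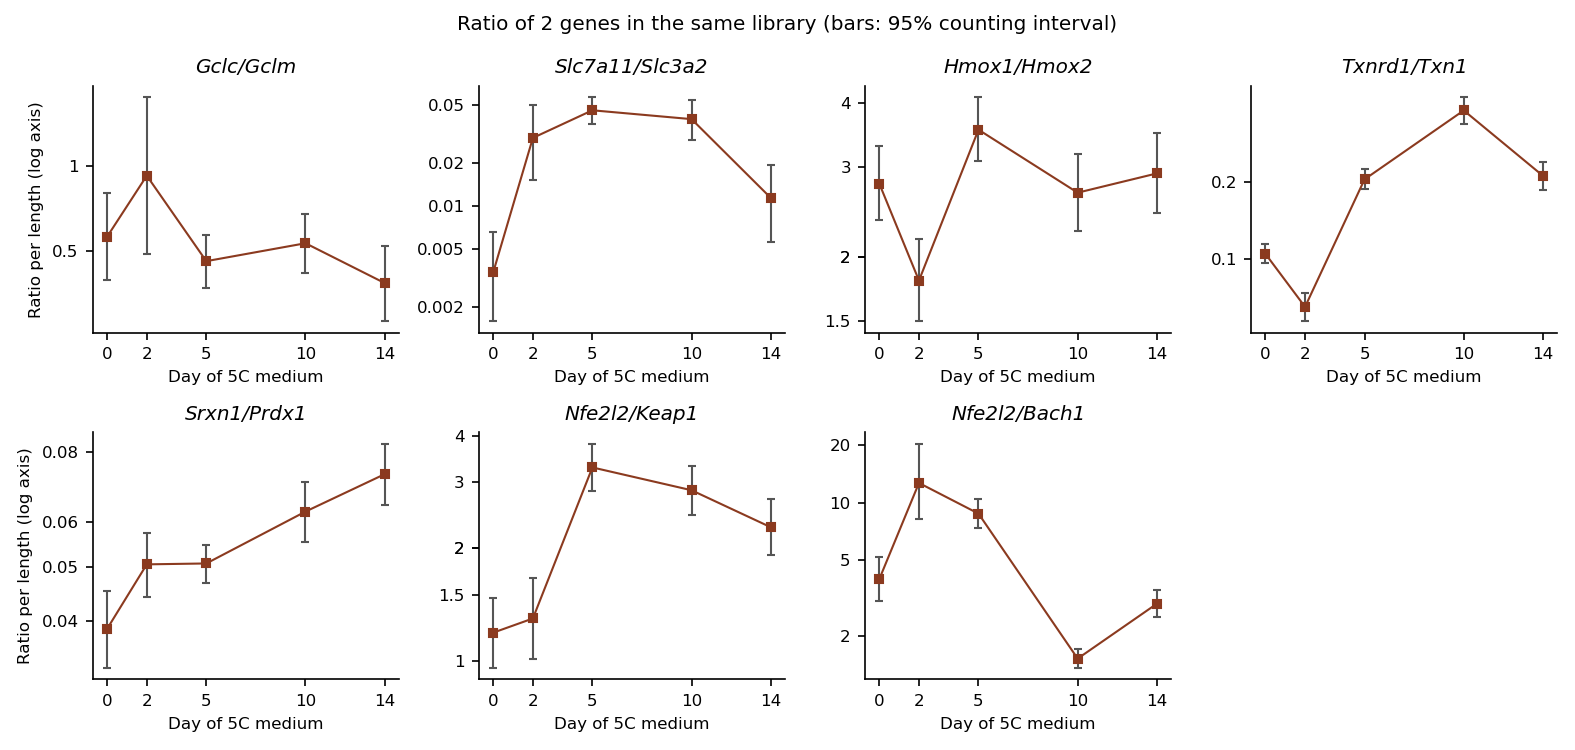
Ratio per length of 7 gene pairs within each library (vertical axes, log scale) by day of 5C medium, with 1 library per day and bars for the 95% counting interval. Nfe2l2 to Keap1 steps up between days 2 and 5, from 1.30 to 3.29, while Nfe2l2 to Bach1 drops from 8.77 on day 5 to 1.53 on day 10.

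Among the regulators of NRF2, Bach1 was the only one over 2-fold above day 0 on day 10 in normalized counts. By TPM Keap1 was at 19.3 on day 0 and 42.6 on day 10, a day on which 52.9% of all genes tested were over 2-fold higher by TPM. Of the 12 regulators and partners listed, all of them among the genes tested, none was over 2-fold higher on days 2 and 5, when 2 and 3 of them were lower, and on day 10, 1 was higher and 3 were lower. The lower ones are 16.7%, 25% and 25% of the list, against 13.1%, 13.6% and 22.3% of all genes tested. The higher ones are 0%, 0% and 8.33%, against 15.2%, 20.2% and 28.7%. Bach1 had normalized counts of 96.0, 45.2, 152, 591 and 264, and a log2 change of 2.61 (2.32 to 2.94) on day 10. Its levels on days 2 and 10 lay on opposite sides of day 0. Maff, a small MAF protein, was at 147, 38.0, 57.8, 35.0 and 47.4 and was over 2-fold lower in each later library in normalized counts. Rbx1, the ring subunit of the ubiquitin ligase, was lower on day 10 by −1.97 (−2.17 to −1.77) on the log2 scale. Gsk3b, a kinase that also marks NRF2 for degradation, was at 0.79 (0.56 to 1.03) on day 10.

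Other genes of glutathione and redox metabolism, counted together with the regulators and partners of NRF2, peaked most often on day 2 by normalized counts. Of 102 such genes in 8 lists that leave out the 10 genes, 97 were among the genes tested. Of the 97, 38 were over 2-fold higher and 6 lower on day 2, with 28 and 11 on day 5, 25 and 25 on day 10, and 25 and 22 on day 14. As shares these are 39.2% higher on day 2, 28.9% on day 5, 25.8% on day 10 and 25.8% at the end, against 15.2%, 20.2%, 28.7% and 24.5% of all genes tested, and 6.19%, 11.3%, 25.8% and 22.7% lower, against 13.1%, 13.6%, 22.3% and 19.9%. The same shares of all genes tested apply to each list that follows. The highest library was day 2 for 46 of the 97 (47.4%, against 21.5% of all genes tested) and day 5 for 11 (11.3%, against 10.6%). By TPM it was day 2 for 20 (20.6%, against 7.64%), day 5 for 25 (25.8%, against 11.8%) and day 10 for 33 (34.0%, against 50.4%), so the day most of them peaked on depended on the unit, and the difference from the 10 genes was not tested.

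Of 35 genes named by their change on day 10, below and among the regulators above, 15 were over 2-fold lower on that day in normalized counts. With TPM, which shifted the median of all genes upwards, 6 of the 15 were (Gpx4, Gsto1, Txn1, Mthfd2, Ftl1 and Selenom). Of all genes tested, 22.3% were over 2-fold lower on day 10 in normalized counts and 6.77% with TPM. The 35 were picked for large changes on this day, so their number does not describe the lists.

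Of 17 glutathione transferases, 11, 8, 8 and 9 were over 2-fold higher and 0, 2, 4 and 3 were lower in the 4 later libraries. The higher ones are 64.7%, 47.1%, 47.1% and 52.9% of the list. Gstm1, a cytosolic transferase, had log2 changes of 2.50 on day 2 and 1.37 on day 10. Mgst1, a membrane-bound one, peaked on day 5, at 2.40 (2.10 to 2.74). Gsto1 was at −0.64 on day 2 and −4.39 (−4.59 to −4.20) on day 10, and Mgst3 at 0.90 and −1.77. Gsta4 had no change over 2-fold to day 0 in normalized counts, although its change on day 5 was 1.56 with TPM and 1.43 after subtraction of the length median.

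Among the 14 genes of glutathione synthesis and cycling, 7 (50%) were over 2-fold higher and 1 (7.14%) lower on day 2, and 3 (21.4%) higher and 6 (42.9%) lower on day 10. Gss, the enzyme after glutamate-cysteine ligase, had a log2 change of −2.14 (−2.41 to −1.89) on day 10, the day on which Gclc and Gclm were at 0.61 and 0.62. Gpx4, the selenoenzyme that reduces lipid hydroperoxides, went from 0.47 on day 2 to −2.51 (−2.63 to −2.39) on day 10. Ggt5, a glutathione hydrolase, was at 0 expected counts at the start and at 296 on day 10. Oplah, the oxoprolinase of the glutathione cycle, had a log2 change of 3.34 (2.66 to 4.33) on that day.

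In the thioredoxin and peroxiredoxin list, 2 of 14 genes (14.3%) were over 2-fold higher and 2 (14.3%) lower on day 2, and 3 (21.4%) higher and 5 (35.7%) lower on day 10. Txn2, the mitochondrial thioredoxin, was at −2.15 on day 10, while Txnip, a thioredoxin-binding protein, was at 2.11 and Sesn3 at 2.42. Of 21 selenoproteins tested, among them Txnrd1 and Gpx4, 8 (38.1%) were over 2-fold higher and 2 (9.52%) lower on day 2, and 3 (14.3%) were higher and 6 (28.6%) lower on day 10. Selenop, which carries selenium between cells, had normalized counts of 53.4, 471, 1577, 1873 and 1470.4. Gpx3, a secreted glutathione peroxidase, peaked on day 2, at 2.78, and Selenom was at −2.32 on day 10. Txnrd1 was one of the 11 that stayed within 2-fold on day 2 and of the 12 on day 10.

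Iron genes beside Hmox1 split. Fth1, the heavy chain of ferritin, had normalized counts of 4243, 17222, 20453, 8159 and 9018, while Ftl1, the light chain, had 48369.6, 55242, 27012, 9070.0 and 8776. The heavy chain peaked on day 5 with Hmox1, and the light chain was highest on day 2. Slc40a1, the iron exporter ferroportin, was at 2 expected counts at the start and at 180 on day 10. In this list of 7 genes, 4 (57.1%) were over 2-fold higher on day 2, 3 (42.9%) on day 5 and 1 (14.3%) on day 10, and 0, 0 and 1 were lower.

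In the list of quinone and carbonyl detoxication and export, 8 of 19 genes (42.1%) were over 2-fold higher and 1 lower on day 2, 7 (36.8%) and 0 on day 5, 6 (31.6%) and 3 on day 10, and 5 (26.3%) and 3 on day 14. Ces1d, a carboxylesterase, was at 0 counts at the start and at a normalized count of 161 on day 14, and Aldh3a2, a fatty aldehyde dehydrogenase, was at 1.21 on day 10. The aldehyde reductases Akr7a5 and Akr1a1 were at −1.19 and −1.03 on day 10 in normalized counts, while their TPM was 47.5 on day 0 and 47.2 on day 10 for Akr7a5, and 687 and 710.4 for Akr1a1. Of 6 superoxide and peroxide genes, 4 (66.7%) were over 2-fold higher on days 2 and 5. The extracellular superoxide dismutase Sod3 was at 3.05 and catalase, Cat, at 1.78 on day 10, while the cytosolic Sod1 was at −1.44 and the metallothionein Mt2 at −0.37. Of 8 genes that supply NADPH, 2 (25%) were higher on day 2, and 1 (12.5%) was higher and 2 (25%) were lower on day 10. Idh1 was at 1.81 and Nnt at 0.86 on that day, Mthfd2 at −2.24 and Taldo1 at −1.91.

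**Figure D4:**
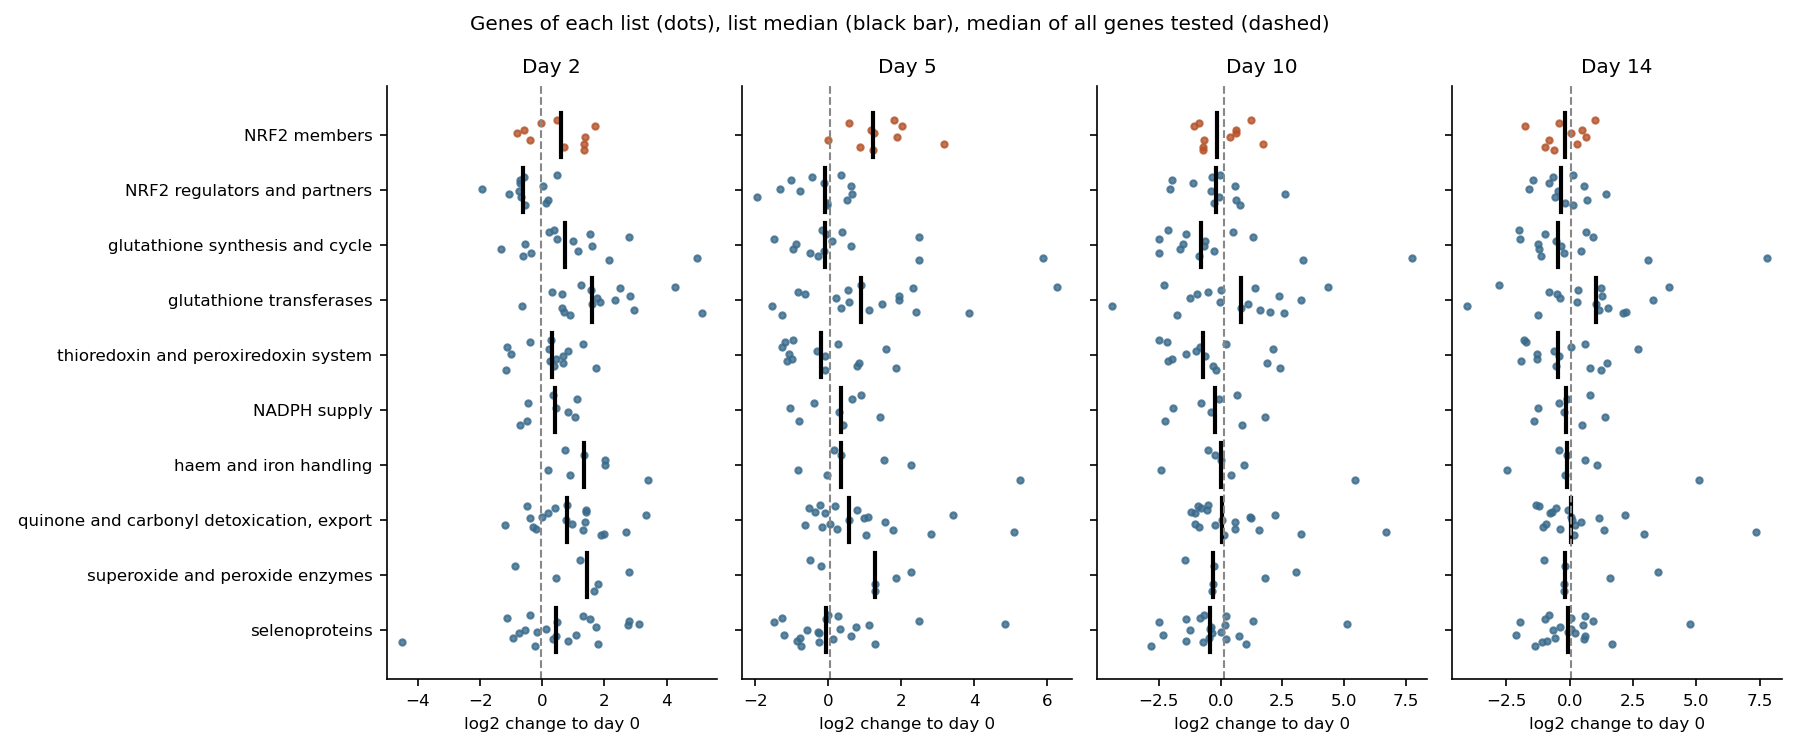
Log2 change of the normalized count to day 0 (horizontal axes) on days 2, 5, 10 and 14 for each gene tested in the NRF2 members and 9 other lists (rows), with a black bar at the list median and a dashed line at the median of all genes tested. On day 5 the median of the members, 1.23, lies to the right of the dashed line at 0.045, and on day 10 it lies at −0.15.

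Pairs of the 10 genes were compared by the Euclidean distance of their log2 changes on the 4 later days, a description over 5 libraries that all share day 0. The closest pair was Gclc and Gclm, at a distance of 0.51, and the farthest was Txnrd1 and Slc7a11, at 4.48. Among the 8273 genes that reached 100 expected counts in some library, Gclm was the second nearest gene to Gclc, after Tbx18 at 0.36. Srxn1 was nearest to Tmem173, at 0.17, followed by the carbonyl reductase Cbr3, at 0.45. Nfe2l2 was nearest to Serpine2, at 0.20, and Tob1, at 0.41. Txnrd1 was nearest to Orai2 and Vegfb, Hmox1 to Twist1 and Lxn, Prdx1 to Nupr1 and Nucb2, Gsta4 to Hpcal1 and Nsg1, and Gclm to Naa40 and Mtif2. No gene came closer than 1.20 to Nqo1, whose nearest was Etv4, or than 1.09 to Slc7a11, whose nearest was C77080.

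Gene length moved with the changes over all genes, which were divided into 5 length classes of like size. In the shortest class the median log2 change was −0.57 on day 5 and −1.15 on day 10, and in the longest class it was 0.33 and 0.92. Gsta4 and Prdx1 are in the shortest class, and Hmox1, Nqo1 and Gclm in the next. After the median of its length class was subtracted from each gene, 7 of the 10 genes were over 2-fold above day 0 on day 5 and none below, with a median of 1.56. Gsta4, at 1.43, was then among the 7 and Gclc, at 0.96, was not. On day 10 Prdx1 and Gsta4 then stood at 0.43 and 0.45, Nqo1 at −0.78 and Txnrd1 at −1.21, and 1 gene was over 2-fold higher and 1 lower. TPM shifted the median of all genes by −0.20, 0.61, 1.09 and 0.78 on days 2, 5, 10 and 14. Relative to that shift, Nfe2l2 was at 1.86 on day 5 and 1.26 on day 10, Nqo1 at 2.04 and −1.03, Srxn1 at 1.94 and 0.40, and Prdx1 at 1.61 and −0.25.

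**Figure D5:**
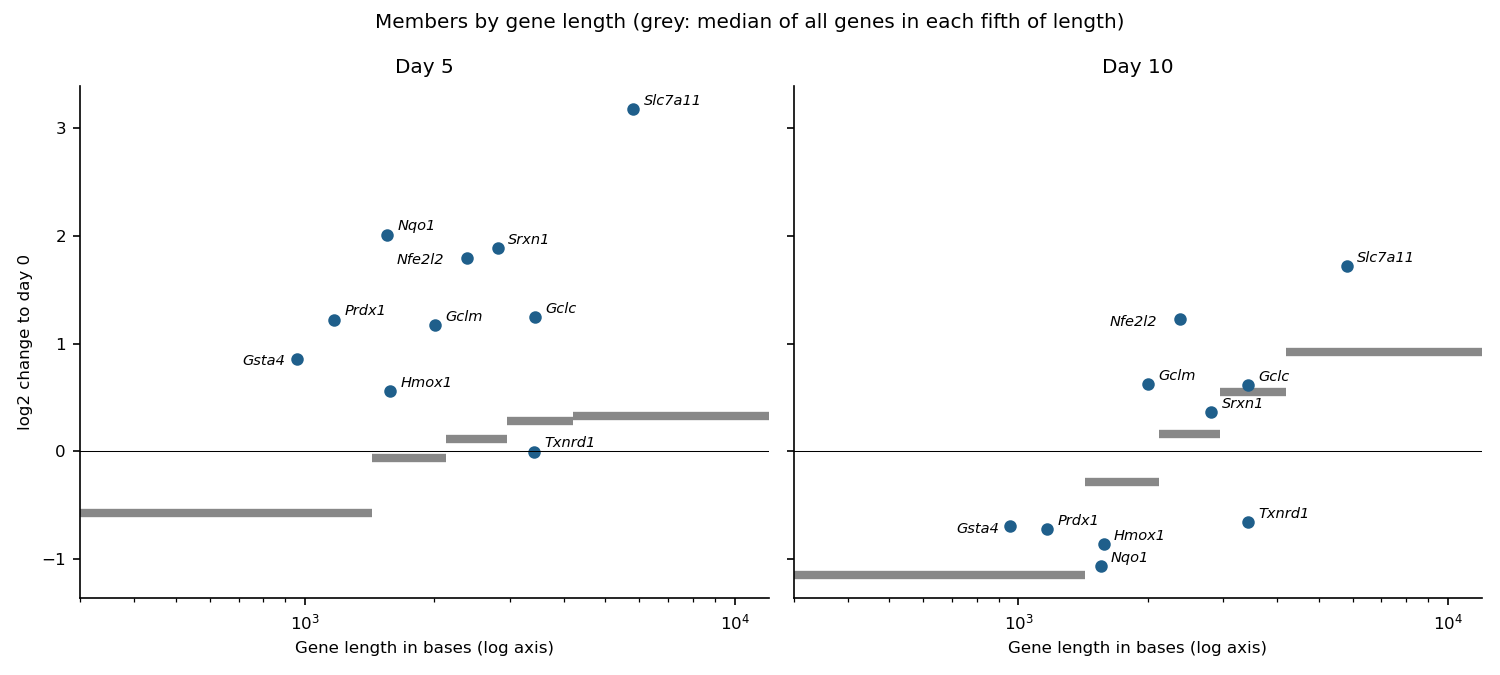
Log2 change of the normalized count to day 0 (vertical axis) against gene length in bases (horizontal log axis) for the 10 genes on days 5 and 10, with grey bars at the median of all genes in each of 5 length classes. On day 10 the grey bars go from −1.15 in the shortest class to 0.92 in the longest, and Hmox1, Nqo1 and Txnrd1 lie below the bar of their class.

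Depth and cell markers touch these values. Library totals ranged from 2253748 expected counts (day 2) to 3890334 (day 0), and 3 counts correspond to a normalized count between 2.14 and 5.43. The RNA Gm42418 took 4.79% of the counts on day 2 and at most 0.109% in the other libraries. In bulk RNA fewer cells of a type and less RNA per cell cannot be told apart. All 10 fibroblast markers, of which Vim and Col1a1 were the most abundant on day 14, were detected on day 0, and their summed normalized counts lay between 48070.1, on day 2, and 109931, on day 14. The 16 macrophage markers, of which Ptprc, Cd5l and Marco were at 0 on day 0, summed to 311, 2462, 4245, 2601 and 1938. All 16 were over 2-fold higher on day 2. On day 5, 15 were higher and 1 was over 2-fold lower, with 13 and 1 on day 10 and 12 and 1 on day 14. The macrophage sum was highest on day 5, as were 8 of the 10 genes. Lyz2 made up most of it on that day, at 2738 of 4245, and Cd5l was at 224. The markers of this list did not share 1 peak day. Lyz2 was highest on day 5, Cd5l on day 10, at 385, and some others on day 2. The 10 Schwann cell and neural crest markers went from 138 to 11115 between days 0 and 14, with Gjc3 at 0 on day 0 and Ngfr and Sox10 the most abundant on day 14. The 11 neuron markers summed to 698, 407, 425, 332 and 402 in normalized counts, and Rbfox3 was at 0 in every library. Stmn2 alone made up 448 of the largest sum, that of day 0. In TPM the sums were 106, 55.3, 92.3, 104 and 124, so the library with the largest sum depended on the unit. Of the 6 neuron markers among the genes tested, 1, 4, 4 and 3 were over 2-fold higher in the 4 later libraries. Over 2-fold lower were 1, 2, 2 and 2. Stmn2 and Tubb3 were the most abundant on day 14. From day 0 to day 14 Stmn2 went from 448 to 163 and Tubb3 from 22.1 to 161. The 6 astrocyte markers lay between 585, on day 0, and 1476, on day 2, with Gfap and Aqp4 at 0 on day 0 and Gja1 and Aldh1l1 the most abundant on day 14. Gja1 alone made up 560 and 1192 of these 2 sums. Of the 6, 4 were over 2-fold higher on day 2, 2 on day 5 and 5 on days 10 and 14, with 0 lower. Of all genes tested, 15.2%, 20.2%, 28.7% and 24.5% were over 2-fold higher in the 4 later libraries. The lower shares were 13.1%, 13.6%, 22.3% and 19.9%. The part of these cells and of gene length in the values of the 10 genes was not tested.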

How the data were processed

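The authors deposited, for each of 5 libraries, expected counts per gene, estimates by RSEM that need not be whole, beside TPM and FPKM values. Bowtie, RSEM and mm10 are named in the submitters' processing notes, with versions and annotation release not given in the sources used here. RSEM can split reads between similar transcripts, and the deposited TPM values divide by a length that differs between libraries. FPKM values were not used.

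Samples were grouped by the day in their labels. Identifiers were matched to GENCODE M21 (GRCm38) for 27247 of 27729 genes. Expected counts were rounded to whole numbers for TMM factors (edgeR 4.0.16, R 4.3.3), which ranged from 0.808 to 1.19. Log2 changes used normalized expected counts with a pseudocount of 1. A change was counted from 2-fold over the 13346 genes that reached 10 expected counts in any library. Intervals were exact Clopper-Pearson intervals at 95%, without the pseudocount. Reads carried no molecular identifiers. With 1 library per day no p-value is given. Scripts in Python 3.11.15 (pandas 2.3.3, scipy 1.17.1) were tested on simulated data. Promoter windows came from RefSeq.

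Named were all 10 genes, the partners in the ratios, and from each list the 2 genes with the largest rise and the 2 with the largest fall on day 10 that reached 100 expected counts. For likeness the 2 nearest genes of each were named, and from marker lists those at 0 and the 2 highest on day 14. The members and lists were chosen with earlier results of these data known. Alternatives were DESeq2 1.42.0 size factors, total counts, upper quartile factors, TPM, other pseudocounts, filters and thresholds, and library sizes without Gm42418 and Lars2. TPM less the median gene and subtraction of the median of each length class were chosen after seeing the data.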

Additional observations from a re-analysis of the deposited data

How the results depend on the processing

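No paired analysis was possible because there is 1 library per day, and no library could be left out of a day. Of 450 log2 changes of the 10 genes under other settings, 18 had another sign than the reported one, 9 of them with TPM and 5 after subtraction of the length medians. With TPM, Nqo1 on day 10 reversed to 0.068. The cause was not tested. The number of genes higher on day 5 was between 7 and 9 under the settings at a threshold of 2-fold, 8 at 1.5-fold and 2 at 4-fold, and these need not be the same genes. The shares of all genes under the same settings were 13.5% to 32.1%, 30.4% and 8.7%. The number lower from day 5 to day 10 was between 4 and 6 at 2-fold, 8 at 1.5-fold and 1 at 4-fold. Of all genes, 3.21% to 10.2%, 22.5% and 1.25% were. The other numbers of genes past the threshold moved as follows. With total counts, 4 were higher and 0 lower on day 10, and 1 was higher on day 14, where 39.3%, 14.5% and 32.4% of all genes were. With upper quartile factors, 2 were lower on day 14, where 21.1% of all genes were. With TPM, 2 were higher and 1 lower on day 2, 5 and 0 on day 10, and 3 and 0 on day 14. From day 2 to day 5, 10 were higher. Of all genes, 7.93% were higher and 14.1% lower on day 2 by TPM, and 52.9% and 6.77% on day 10. On day 14 these shares were 41.6% and 6.97%, and 43.5% were higher from day 2 to day 5. With a pseudocount of 5, 0 were lower on day 10, where 20.7% of all genes were. At 1.5-fold, 1 was lower on day 2, 4 were higher and 5 lower on day 10, and 2 higher and 4 lower on day 14. From day 10 to day 14, 2 were lower. In the same order the shares of all genes were 25.7%, 38.4%, 31.1%, 34.4%, 29.8% and 17.5%. At 4-fold, 0 were higher on day 2, 0 higher and 0 lower on day 10 and 0 lower on day 14. From day 2 to day 5, 1 was higher, and from day 10 to day 14, 0 were lower. The shares of all genes were 5.36%, 13.9%, 7.92%, 6.11%, 5.71% and 2.1% in the same order. With TPM less the median gene, 2 were higher and 1 lower on day 2, 1 higher on day 10 and 1 higher on day 14. From day 10 to day 14, 0 were lower. Here the shares of all genes were 11%, 9.22%, 20.6%, 18.1% and 6.42%. After subtraction of the length medians, 1 was higher on day 10 and 2 were lower on day 14, against 23.8% and 17.9% of all genes. Of 770 list medians under other settings, 105 changed sign, 34 of them with TPM. Over genes that reached 100 counts, the median log2 change of glutathione transferases, day 14 against day 0, reversed to −0.0291. Slc7a11, with 8.99 expected counts on day 0, is the gene that depth limits most.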
